A study of Mus musculus with 4 samples.

Results

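The miRNAs described here are the mature products of the genes lying inside the mouse Hox clusters, namely miR-10a, miR-10b, miR-196a, miR-196b and miR-615, with the partner strands that the array carries. They were chosen by name, and 9 of the 611 mouse miRNAs on the array met the rule, read by 30 probes. Of these 9, 4 were well above background on at least 1 of the 4 arrays (miR-10a, miR-10b, miR-196a and miR-196b) and 5 on none (0 arrays). Detection of 4 of the 9 (44.4%) was near the share over all mouse miRNAs, 252 of 611 (41.2%). The 4 had in common that their brightest array was the same, that of secondary neurospheres titled NFIA OE. On it miR-10a was 15.2-fold and miR-10b 4.22-fold brighter than on the secondary array titled control. With normexp background correction, run with an offset of 50 units added to every spot, the miR-10a difference was 5.43-fold. Such an offset by itself narrows the fold of a dim signal. The miR-10a level on the array titled control was close to background. miR-196a and miR-196b were detected on the secondary array titled NFIA OE and on no other. None (0) of the 9 was detected on either primary array.

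The cells were neural stem and progenitor cells derived from mouse embryonic stem cells and grown as neurospheres, balls of neural precursors that divide in suspension. The primary spheres (passage 0) had been cultured for 6 days since embryoid bodies, the aggregates in which the stem cells start to differentiate. The secondary spheres (passage 1) had been cultured for 12 days. At each passage, cells overexpressing the transcription factor NFIA and control cells came out of 1 mixed culture by fluorescence-activated sorting, so that all 4 samples had shared their spheres with cells of the other kind. Each of the 4 groups had 1 Cy3-labelled array, and so none had a replicate. The titles read CT, taken here as the control cells of the series' design text, or NFIA OE. The titles and source names of the samples contradict each other on NFIA status: at both passages the sample titled control has a source name that speaks of the overexpressing line, and the one titled NFIA OE has a source name that speaks of wild type. Groups follow the titles, and by the source names every signed title difference given here would turn its sign. The promoter that drives NFIA and the number of cell lines are not given in the sources used here.

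Hox genes encode transcription factors that give cells their position along the head to tail axis, and within a cluster they are switched on in order, from genes of the hindbrain to genes of the tail. The miRNA genes between them are usually transcribed with their neighbours, so miR-10 is known from hindbrain and spinal cord and miR-196 from more posterior levels. A miRNA represses messenger RNAs that pair with its seed, bases 2 to 8, and miR-196 is known for pairing almost completely with the Hoxb8 message and directing its cleavage. In the RefSeq gene table (GRCm38.p6), Mir10a lies on chromosome 11 between Hoxb5 and Hoxb4, within the annotated span of Hoxb3. Mir10b lies on chromosome 2 within the spans of Hoxd3 and Hoxd4. miR-196a comes from 2 genes, Mir196a-1 on chromosome 11 between Hoxb13 and Hoxb9 and Mir196a-2 on chromosome 15 between Hoxc10 and Hoxc9. Mir196b lies on chromosome 6 between Hoxa9 and Hoxa10, and Mir615 on chromosome 15 within the span of Hoxc5. The table gives whole gene spans, so exons and introns were not told apart here.

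All 9 miRNAs matched a mature sequence in RefSeq (GRCm38.p6), and they are shown because the seed sorts them into families and because closely similar strands can bind each other's probes. Capitals mark the seed.
miR-10a: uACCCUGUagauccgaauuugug
miR-10b: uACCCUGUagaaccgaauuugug
miR-196a: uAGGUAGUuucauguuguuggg
miR-196b: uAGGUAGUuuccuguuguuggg
miR-615-3p: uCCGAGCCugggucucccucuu
miR-615-5p: gGGGGUCCccggugcucggauc
miR-10a*: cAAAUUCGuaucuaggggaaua
miR-10b*: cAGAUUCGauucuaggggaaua
miR-196a*: cAACGACAucaaaccaccugau
miR-10a and miR-10b share the seed ACCCUGU with each other and with no other of the 1679 mature mouse miRNAs in the table, and the same holds for miR-196a and miR-196b with AGGUAGU. Counted from 1 at the 5′ end, miR-10a and miR-10b differ by 1 substitution, U12A, and miR-196a and miR-196b by 1, A12C, both outside the seed. How much of the signal on a probe for one came from the other was not tested. The star strands and miR-615-5p have seeds of their own.

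Both arms of the miR-10 hairpins are shown because the array read them separately. Capitals mark the 2 mature arms, of which the first is miR-10a or miR-10b and the second its star. The first hairpin lies at chr11:96317165-96317274 and the second at chr2:74726070-74726137, both on the + strand of GRCm38.p6.
Mir10a: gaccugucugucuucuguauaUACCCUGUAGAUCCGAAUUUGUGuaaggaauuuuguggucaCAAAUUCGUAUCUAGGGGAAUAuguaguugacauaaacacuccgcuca
Mir10b: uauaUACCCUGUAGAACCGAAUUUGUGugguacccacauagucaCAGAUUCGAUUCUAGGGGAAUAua

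The 4 arrays detected 186 to 220 of the 611 mouse miRNAs, and their 75th percentile over commonly detected probes ran from 167 to 443 intensity units. Detection of a probe means that the scanner software called 50% or more of its unflagged spots well above background, and detection of a miRNA that any of its probes was detected. Negative-control spots (434 on each array) had mean intensities of 2.89 to 3.70 units with SDs of 3.64 to 4.06, and the lowest detected probe of an array stood at 16.6 to 21.9 units. The 5 miRNAs of the neural progenitor marker list (miR-9, miR-9*, miR-124, miR-92b and miR-125b-5p) were detected on all 4 arrays. Of these, miR-124 is better known as a miRNA of neurons. Of 16 miRNAs of pluripotent cells 10 and 11 were detected on the primary arrays titled control and titled NFIA OE, and 1 and 7 on the secondary ones. No blood marker miRNA was detected (0 of 6 on each array), and of 10 epithelial and endodermal markers 1, miR-375, was detected on the primary array titled control.

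miR-10b, whose gene lies within the annotated spans of Hoxd3 and Hoxd4, was well above background on both secondary arrays by both of its probes. Its more sensitive probe read 12.5 ± 3.84 units (SD over 10 spots) on the primary array titled control and 4.35 ± 4.37 (9 spots) on the primary array titled NFIA OE, neither of them detected. It read 197 ± 11.9 (10 spots) on the secondary array titled control and 677 ± 35.7 (10 spots) on the secondary array titled NFIA OE. The secondary arrays thus stood far above the primary ones, and between the secondary arrays the spots did not meet, with 618 as the lowest on the array titled NFIA OE and 217 as the highest on the array titled control. The other miR-10b probe gave the same order, with 4.75 ± 2.48 and -0.071 ± 3.31 units on the 2 primary arrays, control first, and 81.2 ± 4.07 and 291 ± 20.9 on the secondary ones. These SDs are over spots of 1 array, so they measure technical error and say nothing of the spread between cultures.

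miR-10a, which lies beside Hoxb4, was near background on 3 arrays and bright on the fourth. The more sensitive of its 2 probes read 10.4 ± 5.24 units on the primary array titled control, 4.01 ± 1.95 on the primary array titled NFIA OE, 28.5 ± 5.66 on the secondary array titled control and 361 ± 13.2 on the secondary array titled NFIA OE. On the secondary array titled control 9 of its 10 spots were well above background, against 0 of 10 for the other probe, which read 7.52 ± 4.57 units there and 137 ± 8.60 on the secondary array titled NFIA OE. miR-10a was therefore just detected on the former and clearly on the latter, where the lowest spot of the more sensitive probe, 340 units, was far above its highest of 37.3 on the other secondary array. For the other probe these spots were at 123 and 16.0 units. The 28.5 units lay under the brightest of the 434 negative-control spots of that array, at 35.9 units. The mean of these control spots was 2.97 units, with an SD of 4.06.

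miR-196a was read by 4 probes of 5 spots each. On the secondary array titled NFIA OE these probes averaged 48.7 ± 3.57, 81.2 ± 1.1, 103 ± 10.4 and 110 ± 4.07 units, with every spot used well above background (19 of 19). On the secondary array titled control they averaged 4.58 ± 4.17, 7.57 ± 2.26, 11.4 ± 2.07 and 13.0 ± 2.68, on the primary array titled control 2.45 to 4.98, and on the primary array titled NFIA OE -0.73 to 5.17, with no spot well above background (0) on these 3 arrays. All 4 probes thus agreed that 1 array was bright.

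miR-196b, the product of the Hoxa cluster, was read by 2 probes of 10 spots each. Its more sensitive probe read 2.40 ± 4.41, 0.27 ± 6.46, 4.0 ± 3.82 and 47.3 ± 3.97 units on the primary control, primary NFIA OE, secondary control and secondary NFIA OE arrays, by title. Its other probe read 18.9 ± 3.26 units on the last array, with 4 of 10 spots well above background, which was short of the detection rule. Detection of miR-196b thus rested on 1 probe, although the lowest spot of the other probe on that array, 13.3 units, was still above its highest on the rest, 6.14.

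**Figure D1:**
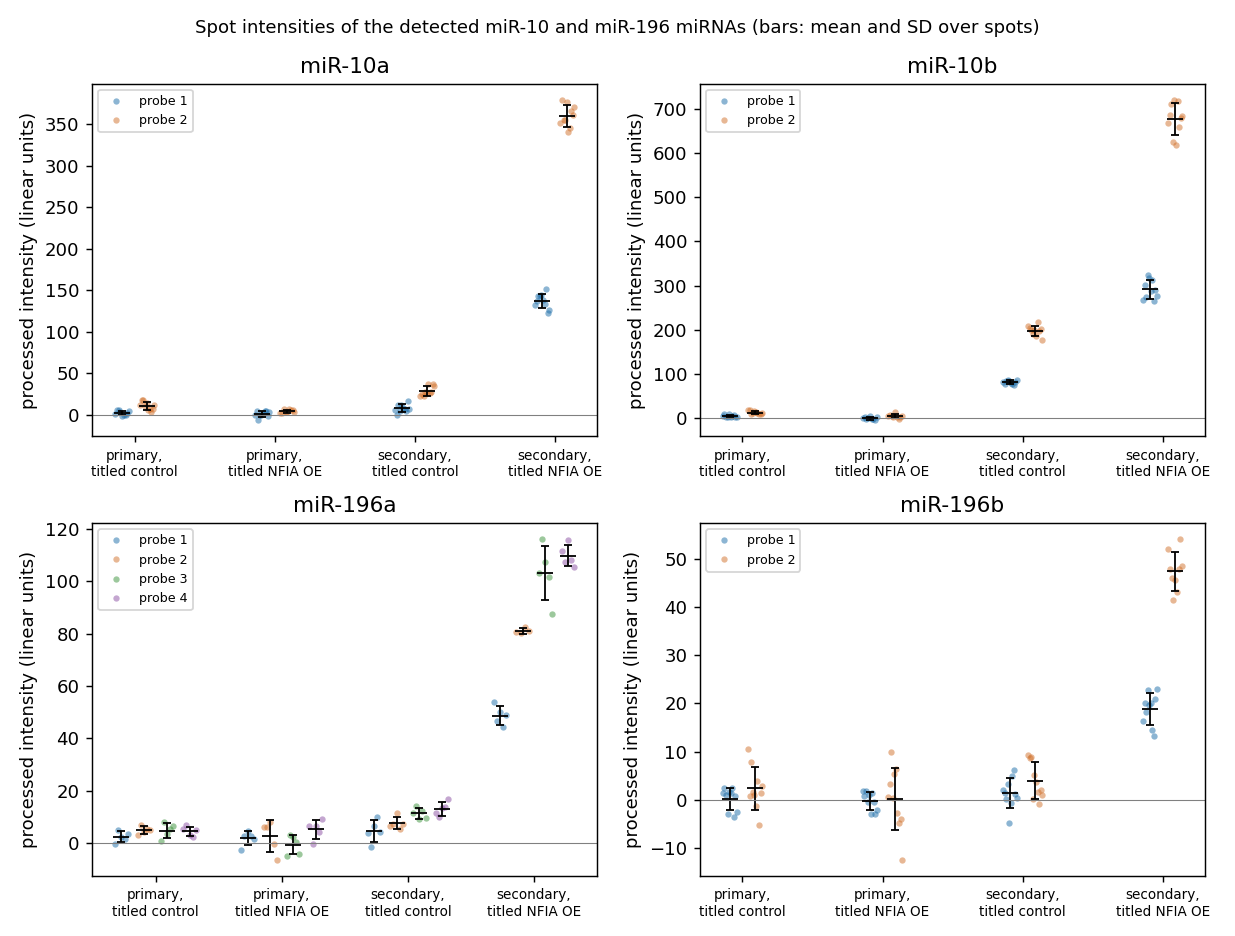
Processed intensity in linear units (vertical axis) of every spot used for miR-10a, miR-10b, miR-196a and miR-196b on the 4 arrays (horizontal axis), coloured by probe, with the mean and the SD over spots as bars. Every probe is brightest on the secondary array titled NFIA OE, and miR-10b is also raised on the secondary array titled control, at 197 units by its more sensitive probe.

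miR-10a*, miR-10b*, miR-196a*, miR-615-3p and miR-615-5p were detected on no array. Over their 20 probes and 4 arrays, 0 of 396 spots used were well above background, and the probe means ran from -6.07 to 16.6 units. The star strands of miR-10a and miR-10b stayed at the level of the negative controls also on the array where the other arm was bright, with no probe mean over 4.02 units. The highest mean of 16.6 ± 1.27 units (5 spots) belonged to 1 of 4 miR-615-3p probes on the secondary array titled NFIA OE, with 0 of 5 spots well above background. The other 3 miR-615-3p probes on that array were between -2.33 and -1.08, so the probes for miR-615-3p disagree there. The scanner software's own call for a whole miRNA counted miR-615-3p as detected on this array, and miR-10b also on the primary array titled control.

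**Figure D2:**
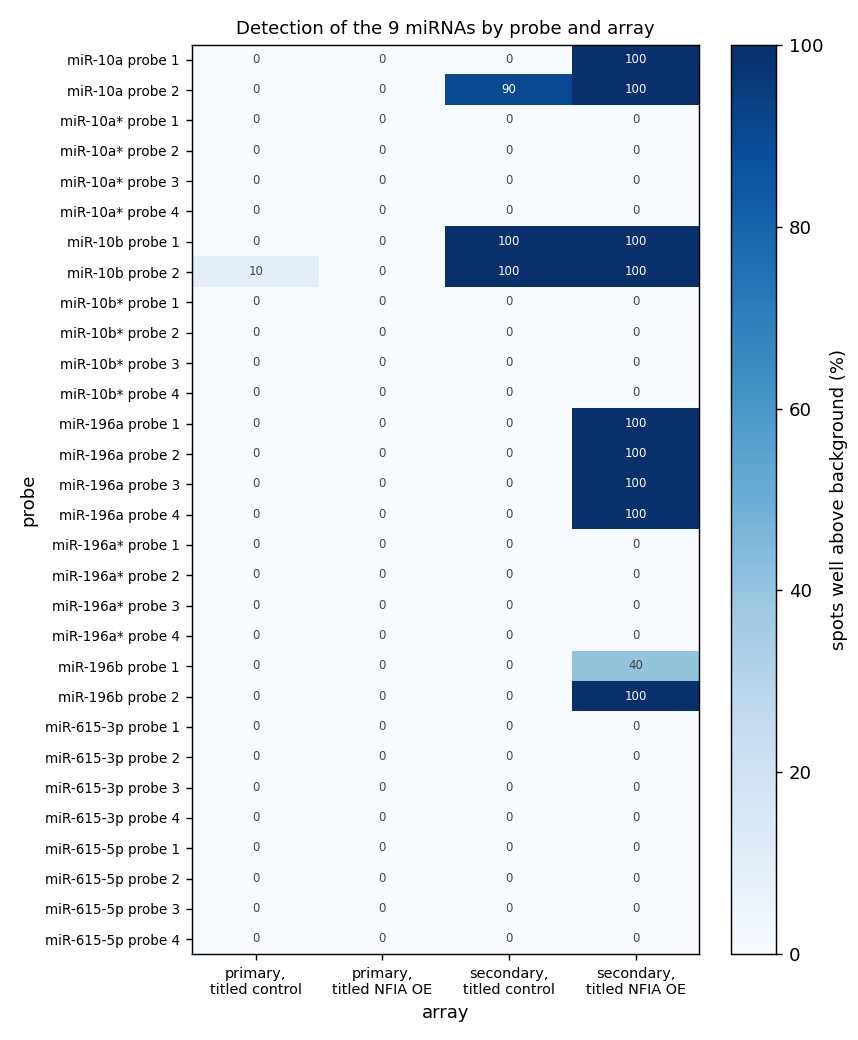
Percentage of spots well above background (colour and printed value) for each of the 30 probes (rows) of the 9 miRNAs on the 4 arrays (columns). Detection is limited to the miR-10a, miR-10b, miR-196a and miR-196b probes on the secondary arrays, apart from 1 of 10 spots of a miR-10b probe on the primary array titled control.

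To compare arrays, signals were scaled by the array's 75th percentile among commonly detected probes, and log2 values were averaged over the probes of a miRNA detected on both arrays compared. Where 1 side was not detected, the difference is a lower bound: the dim side takes, per probe, the higher of its own signal and the lowest signal of any detected probe on that array. No pair of arrays has a replicate, so these differences carry no test and were counted past 2-fold.

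The title comparison at passage 1 asked which miRNAs differ between NFIA OE-titled and control-titled cells of the same secondary spheres. miR-10a differed by 3.92 on the log2 scale (15.2-fold, SE over spots 0.092), which ranked 1 of the 195 miRNAs detected on both arrays. miR-10b differed by 2.08 (4.22-fold, SE over spots 0.027), rank 4 of 195. miR-196a was at least 4.48-fold higher (log2 bound 2.16) and miR-196b at least 2.59-fold (1.37). Of all miRNAs detected on at least 1 of the arrays, 11 of 221 were 2-fold or more higher on the array titled NFIA OE (4.98%), and 4 of the 11 were the members. In the other direction 2 of 221 were 2-fold or more lower (0.905%), 0 of them members. miR-196a and miR-196b were detected through the bright array alone, so a difference in that direction comes with their detection. The median difference over the 195 was -0.08. With normexp background correction and its offset of 50 units, 6 of 221 were past 2-fold and 3 of the members. miR-10a was then at 5.43-fold, the miR-196a bound at 2.04-fold and the miR-196b bound at 1.51-fold, under the limit.

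The other 7 of the 11 were miR-199a-5p (at least 6.15-fold), miR-199a-3p (5.15-fold), miR-199b* (4.5-fold), miR-214 (at least 3.86-fold), miR-139-3p (2.76-fold), miR-455 (2.11-fold) and miR-483* (2.0-fold). They are named here after their values were seen. miR-199 and miR-214 belong to the marker list for mesenchymal, muscle and endothelial cells. Within that list the miR-199 and miR-214 entries stood higher with the NFIA OE title at both passages. Of the 12 miRNAs in the list, 4 were detected on each array titled NFIA OE and 2 on each array titled control. The summed scaled signal of the list was 1.44 and 1.52 on the arrays titled NFIA OE, at passages 0 and 1. On those titled control it was 0.383 and 0.295. The other 8 of the list, among them miR-1, miR-143, miR-145 and miR-126-3p, were detected on no array. The 16 pluripotency miRNAs also differed between the secondary arrays, with 7 detected on the array titled NFIA OE and 1 on the array titled control (summed scaled signal 0.476 and 0.241), while the neural progenitor list summed to 18.4 and 24.3. Whether cells of other types were present, and what part they had in the miR-10 and miR-196 values, was not tested. In bulk RNA, more cells that carry a miRNA and more of it per cell cannot be told apart.

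**Figure D3:**
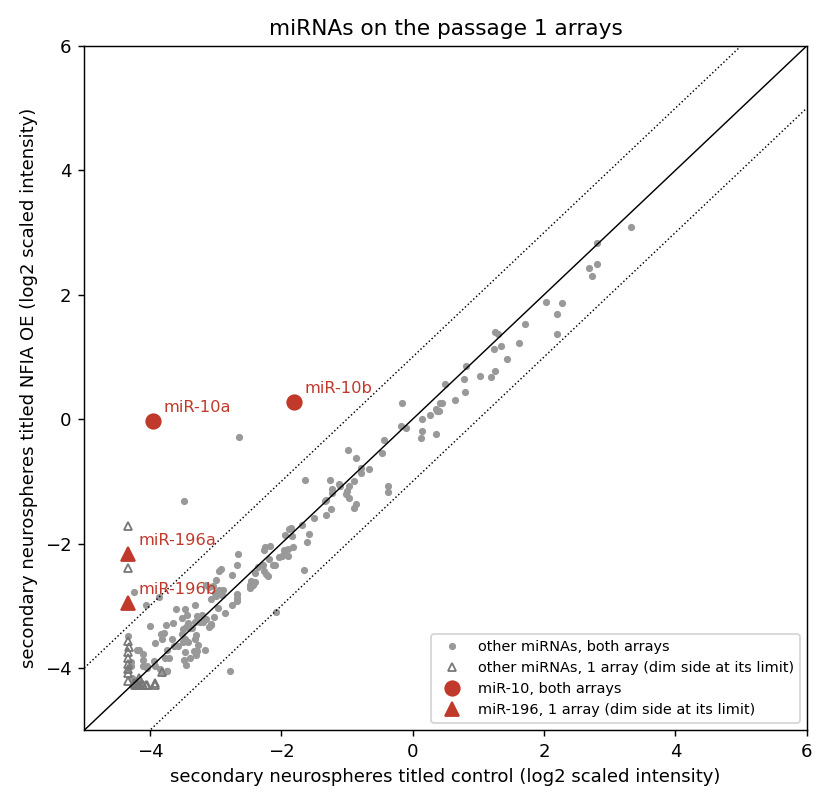
Log2 scaled intensity of each miRNA on the secondary array titled control (horizontal) and titled NFIA OE (vertical). Grey circles were detected on both arrays and open triangles on 1, with the dim side at its limit; the solid line marks equality and the dotted lines 2-fold. miR-10a lies at -3.96 and -0.03, and all 4 members lie above the upper dotted line.

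Every probe of miR-10a, miR-10b, miR-196a and miR-196b was brighter on the secondary array titled NFIA OE than on the one titled control. Only miR-10b had more than 1 probe detected on both arrays. For miR-196b, 1 probe was detected on the array titled NFIA OE and gave the bound above. Both miR-10b probes were 4.12-fold and 4.31-fold brighter on the array titled NFIA OE. For miR-10a the more sensitive probe gave the 15.2-fold difference and the other a bound of at least 7.5-fold. The 4 miR-196a probes gave bounds of at least 2.67-fold to 6.01-fold, with the bound growing with the brightness of the probe. Without any scaling, the ratio of mean intensities was 12.6 for the sensitive miR-10a probe and 3.43 and 3.59 for the miR-10b probes.

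The 2 miR-10 miRNAs therefore changed unequally, by 1.85 on the log2 scale. Scaling constants between arrays cancel in this contrast. It ran from 0.80 with normexp background correction (offset of 50 units) to 1.99 with the authors' processed values, over 9 alternatives, in 1 of which miR-10a enters as a bound. It rests on a miR-10a level close to the detection limit on the array titled control. The 2 differ in sequence by U12A alone.

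At passage 0 the same comparison gave no value for any member, because none was detected on either primary array (0 of 9). At that passage 10 of 227 miRNAs were 2-fold or more higher on the array titled NFIA OE (4.41%). Whether the title difference itself differs between passages was not tested, since the 4 arrays leave no replicate for it.

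The passage comparison asked how secondary neurospheres differ from primary ones, with passage and days in culture changing together. In the arrays titled NFIA OE, miR-10b was at least 18.9-fold higher at passage 1 (log2 bound 4.24), miR-10a at least 9.46-fold (3.24), miR-196a at least 3.48-fold (1.80) and miR-196b at least 2.01-fold (1.01). There 14 of 239 miRNAs were 2-fold or more higher at passage 1 (5.86%), and 4 of these 14 were members, each of them detected through the secondary array alone. With normexp background correction and its offset of 50 units these bounds were 4.77-fold for miR-10b, 2.69-fold for miR-10a, 1.37-fold for miR-196a and 1.01-fold for miR-196b. In the arrays titled control, miR-10b was at least 2.70-fold higher at passage 1 (1.43), against 19 of 235 miRNAs past 2-fold (8.09%), and with normexp that bound was 1.11-fold. miR-10a was detected at passage 1 there, but its scaled level lay under the detection limit of the dimmer primary array, so no fold was given. miR-196a and miR-196b were detected on neither array titled control. The median miRNA was lower at passage 1, by -0.41 in the arrays titled control and -0.39 in those titled NFIA OE, and relative to it the miR-10b bounds were 1.85 and 4.63. Without scaling these medians were 0.99 and 0.11. The marker lists moved with passage too: from passage 0 to passage 1 the summed scaled signal of the 16 pluripotency miRNAs went from 5.12 to 0.241 in the arrays titled control and from 4.35 to 0.476 in those titled NFIA OE. That of the 5 miRNAs of the neural progenitor list went from 9.26 to 24.3 and from 11.9 to 18.4. In that list miR-9, miR-9* and miR-125b-5p were higher at passage 1 under both titles, and miR-124 and miR-92b were lower. miR-124 went from 0.878 to 0.297 in the arrays titled control and from 0.411 to 0.203 in those titled NFIA OE. The part of the marker lists in the passage values of miR-10 and miR-196 was not tested.

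**Figure D4:**
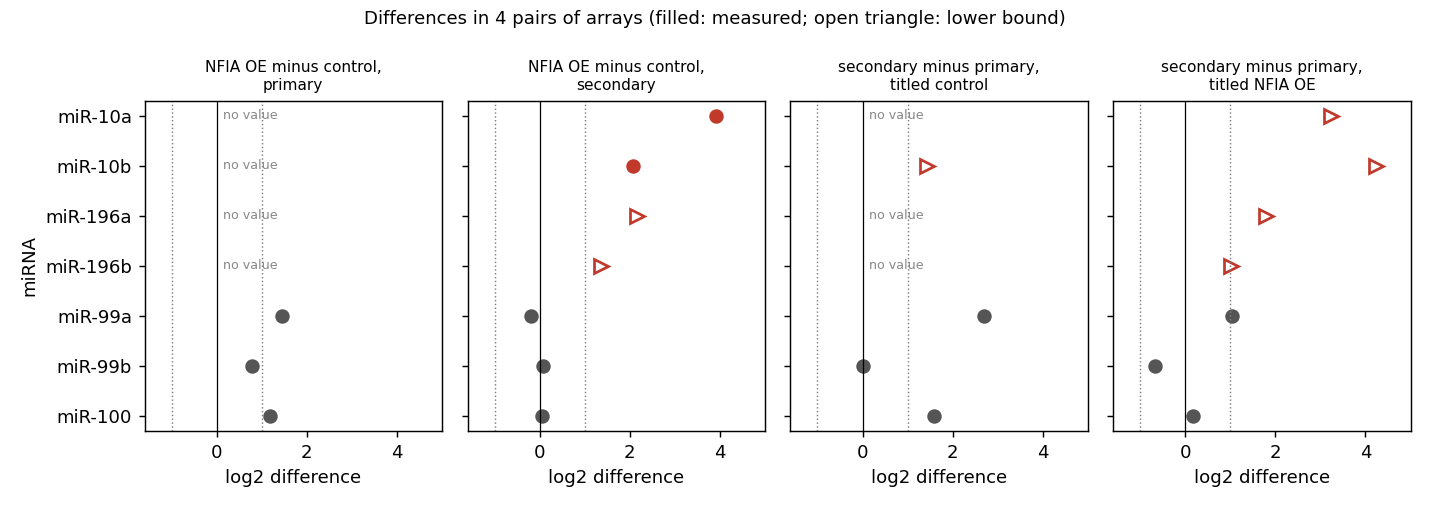
Log2 differences (horizontal axis) of the 4 detected members in red and of miR-99a, miR-99b and miR-100 in grey for 4 pairs of arrays. Filled circles were measured on both arrays, open triangles are lower bounds, and dotted lines mark 2-fold. The members have values of 1.37 or more in the secondary title pair, where the grey miRNAs lie between -0.19 and 0.08.

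Detection on all 4 arrays was needed for the limma fit over the 4 arrays, with title and passage as additive terms, so none (0) of the 153 miRNAs tested in it was a member. That fit called 4 of 153 miRNAs by title (2.61%), of which 2 higher (1.31%), and 70 by passage (45.8%) at a Benjamini-Hochberg adjusted p under 0.05. With miRNAs detected on at least 1 array admitted and dim values at their limit, 252 were tested, 4 of them members. limma then called miR-10b by passage, at 2.84 (SE 0.55, adjusted p = 0.00545), where 108 of 252 were called (42.9%), 19 of them higher (7.54%). miR-10b entered this fit through the secondary arrays alone, and both of its primary values, -3.24 and -3.97, are detection limits, so a positive passage difference came with its admission and the p-value is given as a description. miR-10a stood at 1.17 by passage (SE 0.77, limma adjusted p = 0.247), miR-196a at 0.35 (0.628) and miR-196b at -0.04 (0.934), none of them called. By title, limma gave 1.34 for miR-10a (SE 0.77), 0.67 for miR-10b (SE 0.55), 0.72 for miR-196a (SE 0.57) and 0.32 for miR-196b (SE 0.45), with adjusted p = 0.805, 0.805, 0.805 and 0.875, where 3 of 252 were called (1.19%). In this fit a title difference present at 1 passage is shared among the title estimate, the passage estimate and the residual, which has 1 degree of freedom. The passage estimates of the members thus hold part of their title difference at passage 1. limma pools the variance over miRNAs, here with 7.16 prior degrees of freedom. In the fit of 153 miRNAs these were infinite, so every miRNA had the same SE of 0.295. The p-values thus rest largely on variance pooled over miRNAs. Both arrays of a passage came from 1 culture, so the p-values hold no spread between cultures.

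miR-99a, miR-99b and miR-100 are the nearest relatives of miR-10 in sequence and lie outside the Hox clusters. They are shown because a stretch of the mature strand is shared, though not the seed, which is in capitals.
miR-99a: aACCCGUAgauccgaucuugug
miR-99b: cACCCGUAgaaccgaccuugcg
miR-100: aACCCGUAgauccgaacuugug
The longest stretch shared with miR-10a is 11 bases in miR-100 and 10 in miR-99a, and miR-99b shares 10 with miR-10b. Of the 4 miRNAs of this list 3 were detected on all 4 arrays, and miR-99b* on none. At passage 1 the title differences were -0.19 for miR-99a, 0.08 for miR-99b and 0.05 for miR-100, against 3.92 for miR-10a and 2.08 for miR-10b. At passage 0, where neither miR-10 was detected, they were 1.45, 0.78 and 1.19. From passage 0 to passage 1 the differences in the arrays titled control were 2.70 for miR-99a, 1.59 for miR-100 and 0.01 for miR-99b. In the arrays titled NFIA OE they were 1.03, 0.16 and -0.68, so the 3 relatives did not share 1 direction by passage. The relatives were thus higher on the NFIA OE-titled array at passage 0 and near equal at passage 1, whereas miR-10 was undetected at passage 0 and higher on that array at passage 1.

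Over all 611 mouse miRNAs, miR-196a and miR-196b were the 2 detected on the secondary array titled NFIA OE and on no other. miR-10a and miR-10b were among 13 miRNAs detected on both secondary arrays and on neither primary one. The rest of these 13 were let-7c-1*, miR-132, miR-297a*, miR-29a, miR-320, miR-328, miR-351, miR-425, miR-466i, miR-488 and miR-532-5p, named after the detection calls were seen. By comparison 10 miRNAs were detected on the secondary array titled control alone, 12 on the primary array titled NFIA OE alone and 2 on the primary array titled control alone. No member was measured on all 4 arrays (0), so none was ranked for the miRNAs most alike in pattern.

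In the authors' deposited table, miR-10a stood at 0.414, 0.0843, 0.701 and 10.7 on the primary control, primary NFIA OE, secondary control and secondary NFIA OE arrays, by title. The authors' deposited table gives miR-10b as 0.573, 0.0826, 5.41 and 20.8 and miR-196a as 0.277, 0.0863, 0.355 and 3.68 in the same order. For miR-196b the authors' deposited table holds 0.0875, no value, 0.106 and 1.42. The ratio of the secondary arrays in the authors' deposited table was 15.3 for miR-10a, 3.84 for miR-10b, 10.4 for miR-196a and 13.4 for miR-196b, where the control side of the last 2 was not well above background. For the 3 star strands and miR-615-5p the authors' deposited table holds no value on any array, and for miR-615-3p 0.118 on the secondary array titled NFIA OE alone.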

How the data were processed

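The authors deposited 1 Agilent Feature Extraction 10.5.1.1 file per array with linear spot intensity after spatial detrending, per the file headers. The flags for outliers, saturation and signal well above background are in the same files. The authors' deposited table holds 1 linear intensity per miRNA, proportional on each array to the total gene signal of the scanner file (divisors 20.3 to 34.1), so linear and not centred. Its column medians were 0.700 to 0.882, and the origin of the divisors is unknown. The file headers place the 4 arrays on 1 slide, so position on the slide and group cannot be told apart.

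Control and outlier-flagged spots were left out (no spot was saturated, 0) and spots averaged per probe. The array's names were matched to RefSeq arms by name, with names without an arm taken as the 5p strand and stars as the 3p strand. Fits used limma 3.58.1 in R 4.3.3 and were tested on simulated data. The simulation used miRNAs detected on all 4 arrays, with title effects equal at both passages. It held no member and no value at a detection limit, so it is no check on the member estimates. Named miRNAs are all 9 members, the relatives miR-99a, miR-99b, miR-99b* and miR-100 and the marker lists. The members and lists were chosen with earlier results of these data known. The number of arrays limits the precision.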

Additional observations from a re-analysis of the deposited data

How the results depend on the processing

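By title at passage 1 the measured differences kept their direction over 8 alternatives for miR-10a and 9 for miR-10b. Each bound given above had a value in all 9 alternatives. A bound is given only in its own direction, so its sign is no check on the processing. Among the limma estimates, miR-196b by title was 0.32 with detection on at least 1 array and -0.0071 with no filter, neither called. By title at passage 1 miR-10a ran from 2.44 to 3.93, miR-10b from 1.64 to 2.18, the miR-196a bound from 1.03 to 3.37 and the miR-196b bound from 0.59 to 2.73. Each was lowest with normexp background correction, where 3 of the 4 members were past 2-fold and miR-196b was not. The normexp setting added 50 units to every spot, which by itself narrows folds of dim signals. The part of this offset in the lower values was not tested. When all spots of a probe had to be well above background, miR-10a was no longer detected on the secondary array titled control and had a bound of 3.38. With normexp, members 2-fold or more higher by passage numbered 0 in the arrays titled control (main 1), among 14 of 235 miRNAs (main 19). They numbered 2 in the arrays titled NFIA OE (main 4), among 9 of 239 miRNAs (main 14). In those titled NFIA OE the log2 bounds ran from 1.43 to 6.6 for miR-10a, 2.25 to 7.56 for miR-10b, 0.46 to 5.06 for miR-196a and 0.02 to 3.69 for miR-196b, and the last was past 2-fold in 5 of 9. By passage, limma called 1 member with detection on at least 1 array, where 108 of 252 miRNAs were called. It called 2, miR-10a and miR-10b, with no filter, where 57 of 611 were called. Both primary values of miR-10a and miR-10b were detection limits in these fits. In the latter fit a miRNA detected on no array takes a passage value of -0.70 from the detection limits alone. Counts of all miRNAs called by limma by title were 2 with the percentile over all probes, 2 with quantile normalization, 2 without scaling, 2 without a filter, 7 with median centring, 1 with all spots needed and 0 without passage in the fit (2 at an unadjusted p under 0.05), against 4. By passage they were 30 with the percentile over all probes, 21 without scaling and 108 with detection on at least 1 array, against 70. Leaving out 1 array leaves the difference of the complete pair, given above, with no test. The dim primary array titled control has the highest detection limit after scaling, which limits the passage bounds.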
